A study of Mus musculus with 14 samples.

Results

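Expression of 40 genes for DNA methylation and chromatin regulation was examined in neural stem cells (NSCs) obtained by different routes, in ESCs, and in MEFs. The genes were taken as a named set of DNA methyltransferases and their partners (6 genes), Polycomb repressive complex 2 (PRC2, 5 genes), Polycomb repressive complex 1 (PRC1, 6 genes), SWI/SNF remodelling complexes (10 genes), NuRD and CHD remodellers (6 genes), and histone modifiers (7 genes). Every probe whose platform symbol is one of these genes was included, which gave 63 probes. The array names 16593 genes in all. Of these, 8435 had a probe above background on at least 7 of the 14 arrays, and so did 33 of the 40 members.

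Labelled RNA of 7 groups was hybridized to Illumina MouseRef-8 v2 arrays, with 2 arrays for each group. ESCs (embryonic stem cells) came from blastocysts of 3.5 days post coitum (dpc) and carry the OG2 transgene (Oct4-GFP) in heterozygous form. They were grown with LIF on a layer of inactivated MEFs. MEFs (embryonic fibroblasts) and brain-NSCs came from 13.5 dpc fetuses heterozygous for both OG2 and ROSA26 (neo/lacZ). iPSCs had been made from such MEFs with retroviruses for Oct4, Sox2, Klf4, and c-Myc. iPS-cNSCs are the neomycin-resistant NSCs cultured from brains of 13.5 dpc chimeric embryos that had been formed by aggregating iPSCs with B6C3F1 host embryos. iPS-NSCs #1 and #3 are lines that were differentiated from iPSCs in the dish. NED-NSCs are NSCs from the chimeric embryos that were negative for X-gal staining, so they descend from the host embryo and not from iPSCs. All iPSC-derived NSCs therefore carry the retroviral transgenes, and all NSC groups had been expanded with EGF and bFGF. Whether both arrays of a group stem from independent cultures is not given in the sources used here, and the p-values therefore reflect the spread of these arrays alone, which could be purely technical.

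DNA methyltransferases add methyl groups to cytosine in CpG dinucleotides, where Dnmt1 copies existing methylation after replication and Dnmt3a and Dnmt3b place new marks. PRC2 methylates lysine 27 of histone H3, PRC1 ubiquitinates histone H2A, and both keep developmental genes silent. SWI/SNF complexes move nucleosomes with ATP and exchange subunits between pluripotent cells, neural progenitors, and neurons.

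Values below are the deposited log2 values, and a value of at least 7.7 was counted as above background. Changes are differences of log2 values, with the standard error (SE). Values of different probes are not on a common scale, so levels are compared between groups and not between genes. A probe below background does not show that its gene was silent. Uhrf1, Ezh2, and Ehmt2, for example, had a bright probe and another that was above background on no array. A gene was said to rise or fall where its brightest probe changed by over 2-fold with an adjusted p under 0.05 (limma, adjusted across the kept probes). All 7 pluripotency markers were above background on both ESC arrays, with an array mean between 12.55 and 12.73. All 6 fibroblast markers were above background on both MEF arrays, and 3 of the 6 were so on both ESC arrays. Of 5 NSC markers on the array, 4 were above background on both arrays of each NSC group and Pax6 was not above background on any array. The correlation between the 2 arrays of a group ranged from 0.9891 in iPS-cNSCs to 0.9984 in MEFs across kept probes. The median gap between the arrays over member probes was 0.18 in iPS-cNSCs, against 0.06 to 0.11 for the remaining groups. In bulk RNA, fewer expressing cells and less RNA per cell cannot be told apart.

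**Figure D1:**
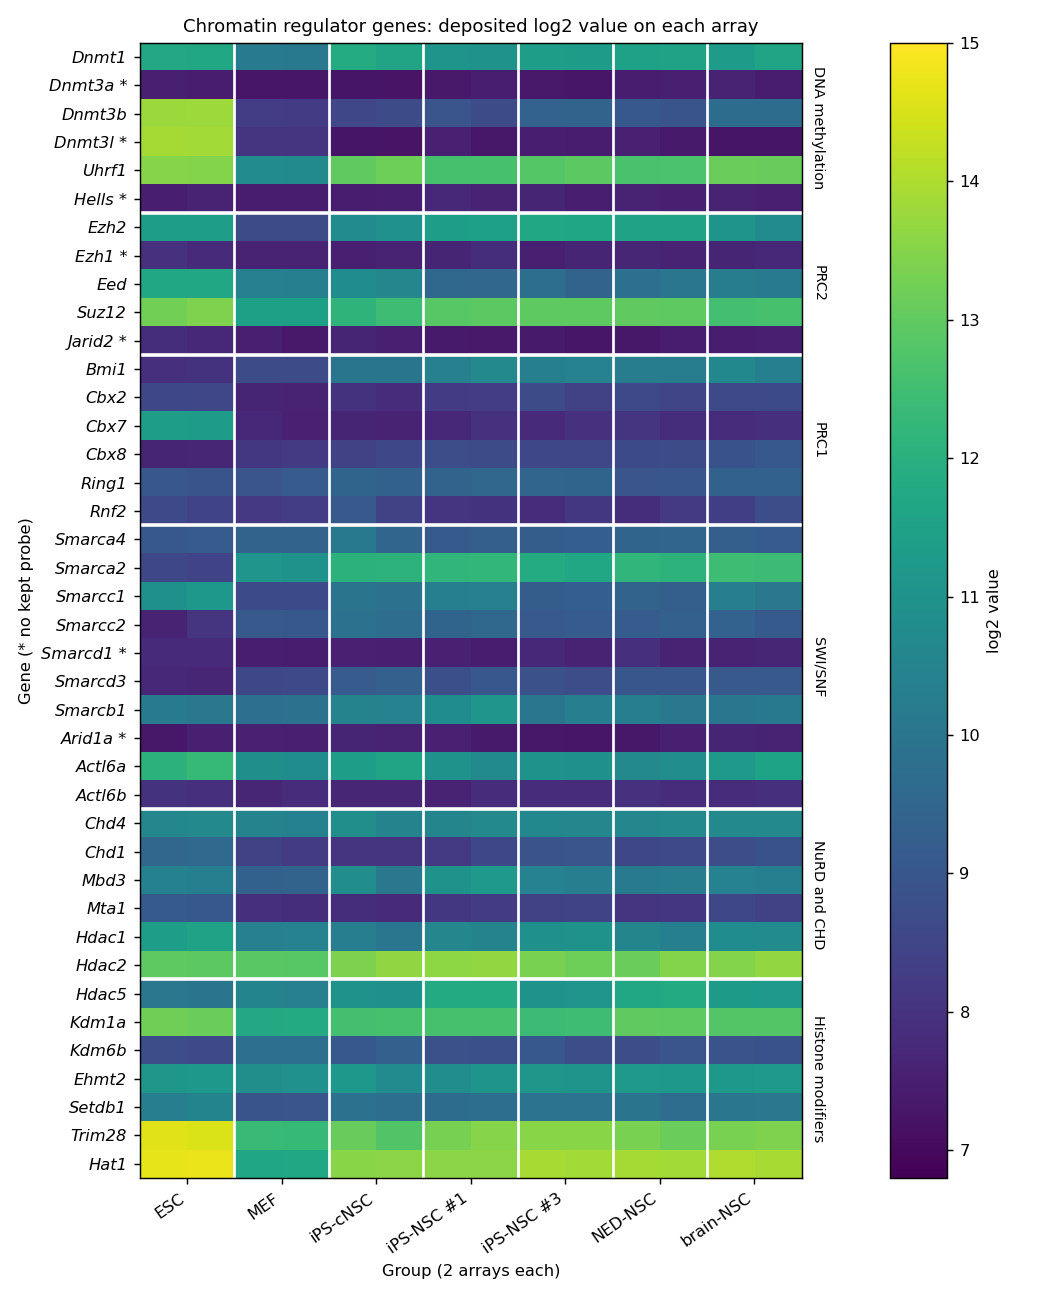
Deposited log2 values of the 40 genes (down the page, by complex) on the 14 arrays (across, 2 columns a group), as colour from low (dark) to high (yellow). The brightest kept probe of a gene is drawn, and genes marked with an asterisk have no kept probe. Dnmt3b, Dnmt3l, and Cbx7 are brighter on the 2 ESC arrays than on the other 12.

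Compared with brain-NSCs, members rose and fell in ESCs, and in MEFs the members past 2-fold were lower. In ESCs, 4 of the 33 tested members rose (Dnmt3b, Cbx7, Eed, and Trim28), which is 12.1%, against 8.51% of all genes tested. A further 6 members fell (Smarca2, Bmi1, Smarcc2, Smarcd3, Cbx8, and Hdac5), which is 18.2%, against 12.5% of all genes. In MEFs, 0 members rose, against 11.1% of all genes, and 13 members (39.4%) fell, against 13.6% of all genes. In MEFs, 1 member (Kdm6b) rose and 6 fell with signals scaled to the same median, where the share of all genes was not counted. The 13 members that fell in MEFs with the deposited values were Uhrf1, Hat1, Ezh2, Bmi1, Smarcc1, Dnmt3b, Smarca2, Dnmt1, Suz12, Setdb1, Trim28, Kdm1a, and Mbd3. By complex, the members that fell in MEFs were 3 of 3 tested DNA methylation genes, 2 of 3 in PRC2, 1 of 6 in PRC1, 2 of 8 in SWI/SNF, 1 of 6 in NuRD and CHD, and 4 of 7 histone modifiers. With signals scaled to the same median, Dnmt1 (-0.69), Suz12 (-0.47), Smarca2 (-0.79), Mbd3 (-0.47), Trim28, Setdb1, and Kdm1a stayed short of 2-fold. The median change of members was 0.08 in ESCs and -0.70 in MEFs on the log2 scale, against -0.05 and -0.14 over all genes. ESCs were also compared directly with MEFs. Here 16 members (48.5%) were over 2-fold higher in ESCs, against 15.3% of all genes, and 3 members (9.09%) were lower, against 15.4%. The split was 8 higher and 7 lower with signals scaled to the same median, again without a count over all genes. These 3 comparisons share arrays, so their counts are not independent. The local-pooled-error test gave the same numbers of 10, 13, and 19 members.

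**Figure D2:**
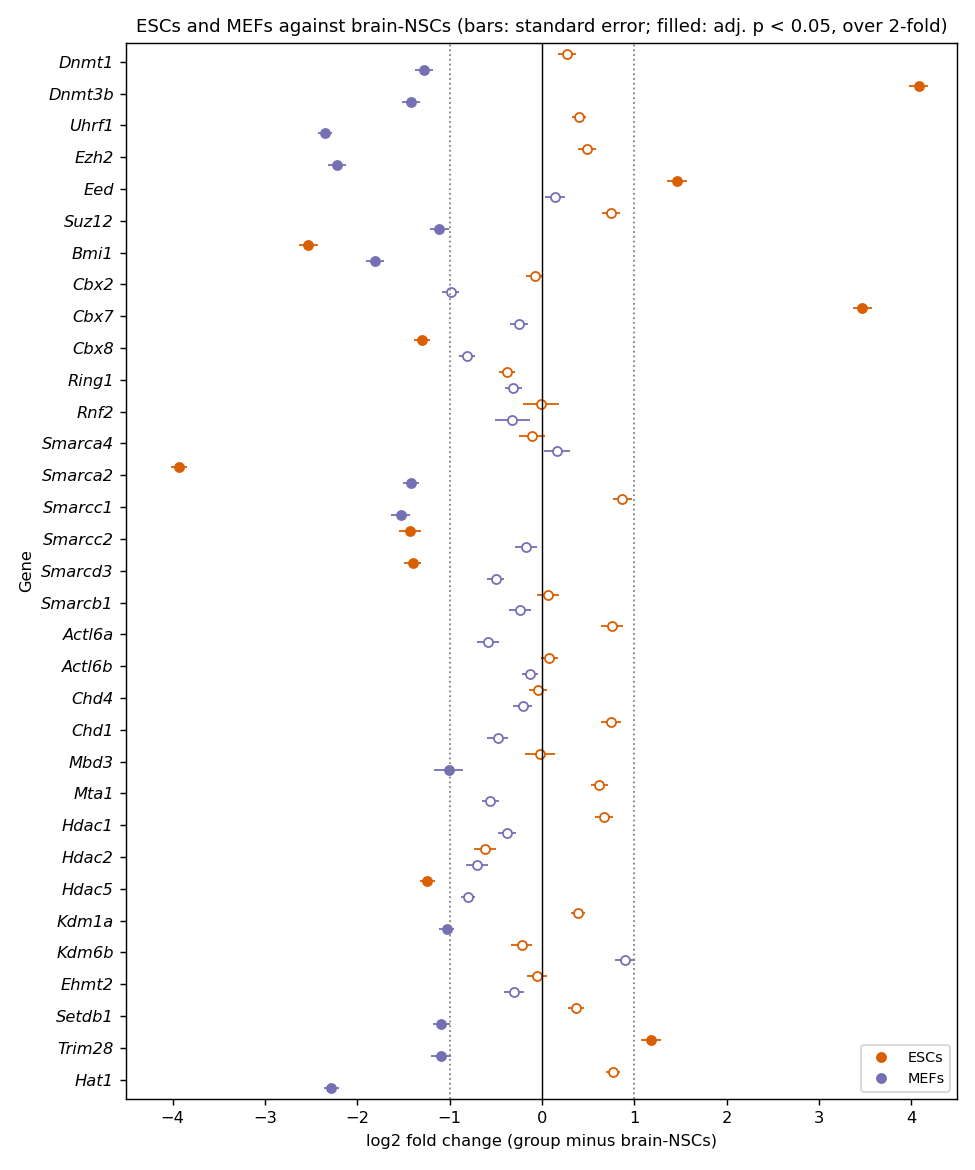
log2 fold changes of the 33 tested members in ESCs (orange) and MEFs (violet) against brain-NSCs. Bars are standard errors, filled points passed the adjusted p and the 2-fold limit, and dotted lines mark 2-fold. In ESCs 4 points are filled on the right and 6 on the left, and in MEFs all 13 filled points lie on the left. With signals scaled to the same median, 7 of the 13 lose their fill and none changes side.

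Genes of proliferating cells moved with the MEF result. Of 12 cycling genes on the array, 9 fell in MEFs, and the array mean of the list was 9.47 to 9.49 in MEFs, against 11.14 to 11.16 in brain-NSCs. Ccna2 (cyclin A2) was not above background on either MEF array. The range was 11.42 to 11.47 in ESCs, 11.07 to 11.41 in iPS-cNSCs, and 10.96 to 11.14 in iPS-NSCs and NED-NSCs. The part of proliferation in the member changes was not tested.

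Among the DNA methylation genes, Dnmt3b and Dnmt3l were far higher in ESCs than in the other cells. Dnmt3b, a de novo methyltransferase, had 13.77 and 13.79 in ESCs, 8.28 and 8.27 in MEFs, 8.53 and 8.67 in iPS-cNSCs, 8.97 and 8.66 in iPS-NSCs #1, 9.38 and 9.40 in iPS-NSCs #3, 9.05 and 8.93 in NED-NSCs, and 9.69 and 9.71 in brain-NSCs. The 2 ESC arrays stood far above the other 12, the brain-NSC arrays came next, and the MEF arrays were at the bottom. Dnmt3b rose by 4.08 (SE 0.10, adjusted p = 8.7e-15) in ESCs, a 17.0-fold difference from brain-NSCs, and was 5.51 (SE 0.10, adjusted p = 3.4e-16) higher in ESCs than in MEFs. It fell by 1.42 (SE 0.10, adjusted p = 2.2e-09) in MEFs. A second Dnmt3b probe was above background on the 2 ESC arrays and on no other (8.26 and 8.38 in ESCs).

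Dnmt3l has no catalytic activity of its own and stimulates the de novo enzymes. Its probes were above background on only 4 arrays, so they did not pass the filter. By the first probe Dnmt3l had 13.88 and 13.86 in ESCs, 8.07 and 8.02 in MEFs, 7.27 and 7.23 in iPS-cNSCs, 7.55 and 7.32 in iPS-NSCs #1, 7.49 and 7.41 in iPS-NSCs #3, 7.55 and 7.40 in NED-NSCs, and 7.28 and 7.27 in brain-NSCs. The second probe had 14.04 and 14.03 in ESCs, 7.85 and 7.93 in MEFs, and between 7.19 and 7.45 on the NSC arrays. In a fit of all probes, Dnmt3l was at least 71.9-fold and at least 80.8-fold higher in ESCs than in brain-NSCs by the 2 probes (adjusted p = 3.1e-21 and 2.2e-21). These folds are bounds because brain-NSCs were not above background. The 2 MEF arrays lay above all NSC arrays with both probes, at least 1.27-fold and at least 1.14-fold over brain-NSCs. The log2 changes were 0.77 (SE 0.09, adjusted p = 4.1e-07) and 0.61 (SE 0.09, adjusted p = 7.6e-06). Of the 7 pluripotency markers, 2 (Nanog and Zfp42) were also above background on both MEF arrays, and 5 were so on neither. Their relation to the Dnmt3l values in MEFs was not tested. Dnmt3a, the other de novo methyltransferase, was not above background on any array with either probe, which does not show that it was silent. Dnmt3a had 7.51 and 7.41 in ESCs, 7.31 and 7.29 in MEFs, 7.28 and 7.22 in iPS-cNSCs, 7.35 and 7.48 in iPS-NSCs #1, 7.36 and 7.31 in iPS-NSCs #3, 7.41 and 7.51 in NED-NSCs, and 7.59 and 7.44 in brain-NSCs by its brighter probe, with all groups overlapping brain-NSCs or below them. The other probe had 6.93 to 7.28.

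Dnmt1, the maintenance methyltransferase, had 11.74 and 11.71 in ESCs, 10.22 and 10.13 in MEFs, 11.83 and 11.60 in iPS-cNSCs, 11.06 and 11 in iPS-NSCs #1, 11.40 and 11.32 in iPS-NSCs #3, 11.50 and 11.52 in NED-NSCs, and 11.33 and 11.58 in brain-NSCs. The 2 MEF arrays were lowest and did not overlap any other group. Dnmt1 fell by 1.28 (SE 0.10, adjusted p = 9e-09) in MEFs, and its change in ESCs was 0.27 (SE 0.10, adjusted p = 0.026), or 0.14 (adjusted p = 0.3) without the first brain-NSC array. Uhrf1 brings Dnmt1 to hemimethylated DNA at replication forks. It had 13.52 and 13.48 in ESCs, 10.77 and 10.72 in MEFs, 12.99 and 13.19 in iPS-cNSCs, 12.60 and 12.60 in iPS-NSCs #1, 12.85 and 12.94 in iPS-NSCs #3, 12.63 and 12.69 in NED-NSCs, and 13.12 and 13.08 in brain-NSCs. Here too the MEF arrays lay below all others, and Uhrf1 fell by 2.35 (SE 0.08, adjusted p = 6.4e-13) in MEFs. A second Uhrf1 probe was not above background on any array. The remodelling helicase Hells was not above background on any array with either probe, with values from 7.14 to 7.70.

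**Figure D3:**
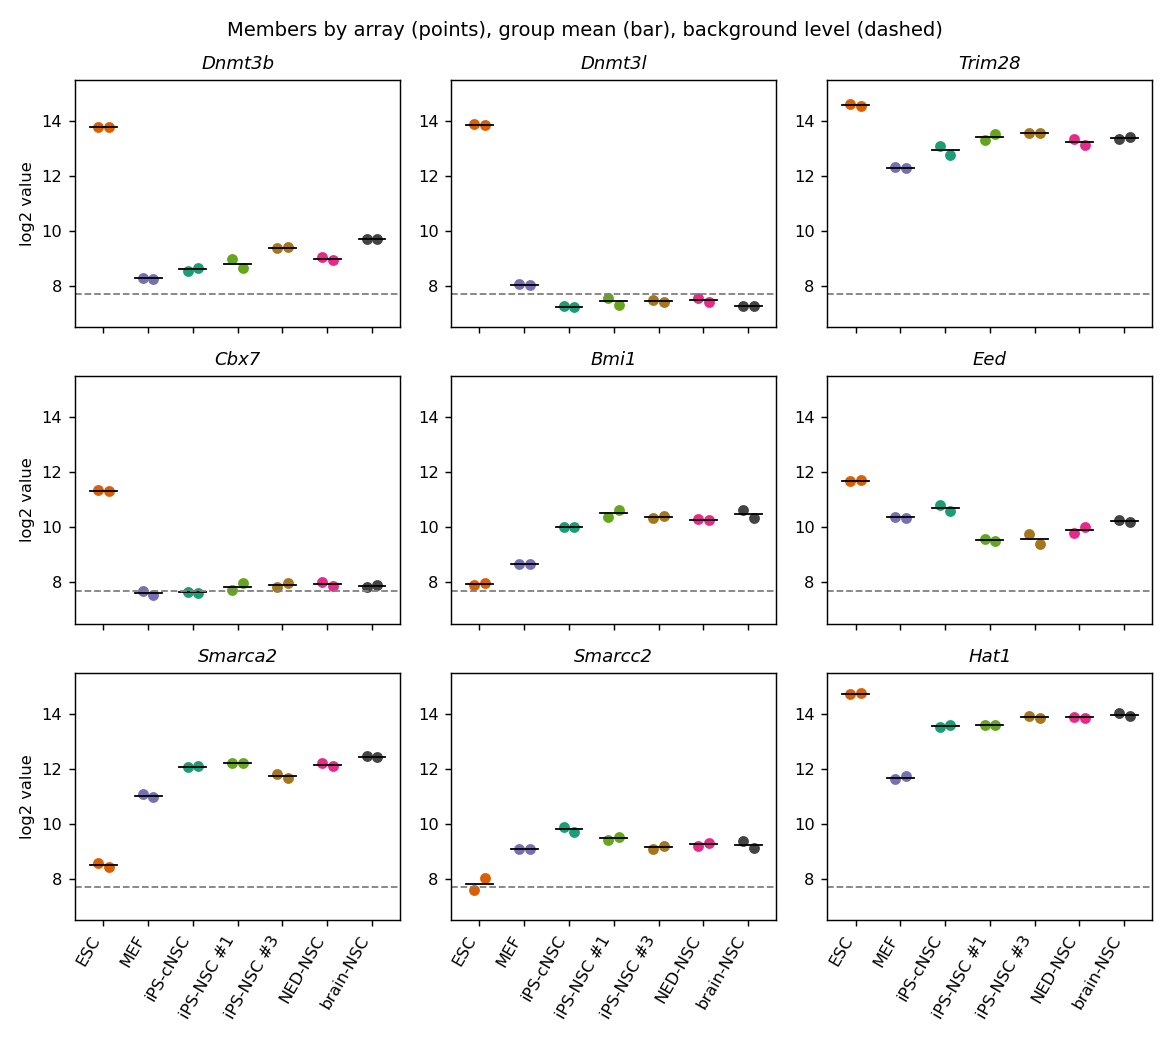
Deposited log2 values of 9 members by group, with a point for each array, a bar for the mean of the 2 arrays, and a dashed line at the background level of 7.7. ESC points stand apart at the top for Dnmt3b, Dnmt3l, Trim28, Cbx7, Eed, and Hat1 and at the bottom for Bmi1, Smarca2, and Smarcc2.

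The start regions of Dnmt3l held fewer CpG dinucleotides than those of Dnmt3b and Cbx7, which like Dnmt3l were brightest in ESCs. RefSeq (GRCm38.p6) start regions, from 250 bases before to 50 bases after a transcript start, were found for 36 of the 40 members. The median number of CpG dinucleotides, the sites that DNA methyltransferases modify, was 29 over the regions of members and 7 over all 32851 regions. The Dnmt3b region had 30, the Cbx7 region had 33, and the Dnmt3l regions had 6, 4, and 3, and 47.9% of all regions have 6 or fewer. The 100 bases before the first listed start are shown for these 3 genes because they contrast among the members highest in ESCs. Capitals mark CG, and each sequence is written on the strand of the gene.
Dnmt3l (chr10:78042187-78042286, plus strand): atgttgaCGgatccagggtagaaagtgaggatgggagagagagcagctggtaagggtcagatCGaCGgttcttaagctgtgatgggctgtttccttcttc
Dnmt3b (chr2:153649349-153649448, plus strand): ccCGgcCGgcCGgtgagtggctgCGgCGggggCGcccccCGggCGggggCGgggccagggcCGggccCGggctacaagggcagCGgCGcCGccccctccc
Cbx7 (chr15:79932647-79932746, minus strand): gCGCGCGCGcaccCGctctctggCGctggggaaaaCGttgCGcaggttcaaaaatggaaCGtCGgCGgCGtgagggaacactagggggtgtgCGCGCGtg
CG occurred 3 times in the Dnmt3l window, 14 times in the Dnmt3b window, and 15 times in the Cbx7 window. Methylation itself and the start used in ESCs were not measured.

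The 3 tested PRC2 genes had different patterns. Ezh2, the methyltransferase subunit, had 11.37 and 11.41 in ESCs, 8.66 and 8.70 in MEFs, 10.74 and 10.96 in iPS-cNSCs, 11.40 and 11.42 in iPS-NSCs #1, 11.67 and 11.62 in iPS-NSCs #3, 11.53 and 11.52 in NED-NSCs, and 11.05 and 10.75 in brain-NSCs. It was 4.65-fold lower in MEFs than in brain-NSCs, a fall of 2.22 (SE 0.10, adjusted p = 1.3e-11), and the MEF arrays lay more than 2 units below the next array. A dimmer kept Ezh2 probe was not above background in MEFs and lower by at least 1.67-fold, with a log2 change against brain-NSCs of -0.87 (SE 0.11, adjusted p = 3.7e-06). Ezh1, the alternative catalytic subunit, was above background on 4 arrays by 1 probe and on 2 by the other, with values from 7.22 to 7.97. Ezh1 had 7.97 and 7.78 in ESCs, 7.62 and 7.57 in MEFs, 7.53 and 7.57 in iPS-cNSCs, 7.65 and 7.88 in iPS-NSCs #1, 7.52 and 7.65 in iPS-NSCs #3, 7.67 and 7.63 in NED-NSCs, and 7.64 and 7.73 in brain-NSCs by the first probe. No Ezh1 array was far from the background level.

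Eed binds methylated histone H3 and activates the enzyme. It had 11.68 and 11.71 in ESCs, 10.38 and 10.35 in MEFs, 10.80 and 10.59 in iPS-cNSCs, 9.58 and 9.50 in iPS-NSCs #1, 9.76 and 9.41 in iPS-NSCs #3, 9.79 and 10.02 in NED-NSCs, and 10.27 and 10.19 in brain-NSCs. ESC arrays were highest, and the 4 arrays of the iPS-NSC lines were lowest. Eed rose by 1.46 (SE 0.11, adjusted p = 1.2e-08) in ESCs, and its change in MEFs was 0.14 (SE 0.11, adjusted p = 0.29). Suz12, the scaffold of PRC2, had 13.25 and 13.41 in ESCs, 11.46 and 11.47 in MEFs, 12.12 and 12.45 in iPS-cNSCs, 12.87 and 12.93 in iPS-NSCs #1, 12.96 and 12.95 in iPS-NSCs #3, 12.99 and 12.97 in NED-NSCs, and 12.54 and 12.61 in brain-NSCs. The ESC arrays were highest and the MEF arrays lowest with no overlap. Suz12 fell by 1.11 (SE 0.10, adjusted p = 6.5e-08) in MEFs, and its change in ESCs stayed under 2-fold at 0.75 (SE 0.10, adjusted p = 6.7e-06). Jarid2, which helps PRC2 reach its targets, was above background on the 2 ESC arrays only (7.87 and 7.74), and was between 7.29 and 7.66 on the other 12.

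Short matches to the E2F motif were found in 3 of the 13 members that fell in MEFs. E2F factors are known for driving genes of DNA replication, and the letters TTTCCCGC and TTTGGCGC, which do not overlap each other, were searched on both strands of the start regions. Either was present in 6 of the 36 members with a region (Arid1a, Ezh2, Dnmt1, Suz12, Smarcd1, and Hells), against 486 of 27025 genes, or 1.8%, and 1.56% of all regions. Arid1a, Smarcd1, and Hells had no kept probe, so their change in MEFs was not tested. With signals scaled to the same median, Ezh2 kept its call in MEFs (-1.79), and Dnmt1 (-0.69) and Suz12 (-0.47) did not. Both motifs contain CG, and member regions had a median of 29 CpG, against 7 over all regions. Regions of like CpG content were not compared. The matches of the 3 members that fell in MEFs are shown with the motif in capitals, on the strand of the gene.
Ezh2 (chr6:47595009-47595038, minus strand): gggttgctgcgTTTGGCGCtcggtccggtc
Dnmt1 (chr9:20952574-20952601, minus strand, the third listed start): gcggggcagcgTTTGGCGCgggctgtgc
Suz12 (chr11:79992876-79992905, plus strand): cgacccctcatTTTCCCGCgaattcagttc
The motif began at base 4 after the start in Ezh2 and at base 34 in Dnmt1, and 219 bases before the start in Suz12. These are matches of letters and no binding was measured.

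PRC1 genes held the largest contrasts between ESCs and NSCs among the Polycomb members. Cbx2, Cbx7, and Cbx8 are alternative subunits that bind methylated histone H3. Cbx7 had 11.36 and 11.32 in ESCs, 7.70 and 7.54 in MEFs, 7.66 and 7.61 in iPS-cNSCs, 7.71 and 7.98 in iPS-NSCs #1, 7.82 and 7.98 in iPS-NSCs #3, 8.03 and 7.88 in NED-NSCs, and 7.84 and 7.89 in brain-NSCs. The ESC arrays stood far above the other 12, which were near background, and Cbx7 rose by 3.47 (SE 0.10, adjusted p = 7.1e-14) in ESCs, an 11.1-fold difference from brain-NSCs. MEFs were not above background by the mean of their 2 arrays, and Cbx7 was at least 12.4-fold higher in ESCs than in MEFs. Cbx8 had 7.66 and 7.69 in ESCs, 8.13 and 8.20 in MEFs, 8.42 and 8.58 in iPS-cNSCs, 8.73 and 8.70 in iPS-NSCs #1, 8.59 and 8.56 in iPS-NSCs #3, 8.65 and 8.71 in NED-NSCs, and 8.88 and 9.07 in brain-NSCs. The ESC arrays were lowest and the brain-NSC arrays highest, and Cbx8 was at least 2.42-fold lower in ESCs (log2 change -1.30 (SE 0.09, adjusted p = 1.8e-09)). Cbx2 had 8.58 and 8.53 in ESCs, 7.65 and 7.62 in MEFs, 8.01 and 7.84 in iPS-cNSCs, 8.24 and 8.30 in iPS-NSCs #1, 8.67 and 8.43 in iPS-NSCs #3, 8.62 and 8.51 in NED-NSCs, and 8.62 and 8.63 in brain-NSCs. It was not above background in MEFs, where its level was lower by at least 1.90-fold (log2 change -0.99 (SE 0.09, adjusted p = 9.2e-08) against brain-NSCs), and its change in ESCs was -0.08 (SE 0.09, adjusted p = 0.49).

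Bmi1, which stimulates the ubiquitin ligase of PRC1 and is needed for self-renewal of NSCs, had 7.92 and 7.99 in ESCs, 8.67 and 8.67 in MEFs, 10 and 10 in iPS-cNSCs, 10.38 and 10.65 in iPS-NSCs #1, 10.34 and 10.42 in iPS-NSCs #3, 10.29 and 10.28 in NED-NSCs, and 10.63 and 10.34 in brain-NSCs. All 10 NSC arrays lay above the MEF arrays, and the MEF arrays lay above the ESC arrays. Bmi1 fell by 2.53 (SE 0.10, adjusted p = 5e-12) in ESCs and by 1.81 (SE 0.10, adjusted p = 2.4e-10) in MEFs. The ligase subunits are Ring1 and Rnf2 (Ring1b), and neither passed 2-fold in any comparison of the deposited values with all arrays. Ring1 ranged from 8.93 to 9.52 over the arrays. Rnf2 ranged from 7.84 to 9.09, and the 2 iPS-cNSC arrays differed by 0.70 (9.09 and 8.39).

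In SWI/SNF, 3 subunits that have an alternative (Smarca2, Smarcc2, and Smarcd3) fell in ESCs. Smarca2 (Brm) and Smarca4 (Brg1) are the alternative ATPases. Smarca2 had 8.58 and 8.44 in ESCs, 11.07 and 10.97 in MEFs, 12.08 and 12.09 in iPS-cNSCs, 12.20 and 12.23 in iPS-NSCs #1, 11.83 and 11.67 in iPS-NSCs #3, 12.20 and 12.10 in NED-NSCs, and 12.46 and 12.42 in brain-NSCs. The 10 NSC arrays were highest, MEF arrays were lower, and ESC arrays were lowest, with no overlap between these sets. Smarca2 fell by 3.93 (SE 0.09, adjusted p = 3.4e-15) in ESCs, which was 15.2-fold, and by 1.42 (SE 0.09, adjusted p = 4.4e-10) in MEFs. A second, dim Smarca2 probe was not above background in ESCs, where it was lower by at least 1.08-fold, and its change in MEFs was 0.08 (SE 0.11, adjusted p = 0.52), so the probes disagree for MEFs. Smarca2 lies on chromosome 19, where the median change over 301 genes was -0.31 in ESCs and -0.44 in MEFs against brain-NSCs, and its part in the Smarca2 changes was not tested. Smarca4 had 9.07 and 9.18 in ESCs, 9.40 and 9.40 in MEFs, 10.10 and 9.46 in iPS-cNSCs, 9.13 and 9.27 in iPS-NSCs #1, 9.22 and 9.24 in iPS-NSCs #3, 9.45 and 9.47 in NED-NSCs, and 9.27 and 9.20 in brain-NSCs. Its ESC arrays overlapped those of iPS-NSCs #1, the change in ESCs was -0.11 (SE 0.14, adjusted p = 0.51), and that in MEFs was 0.16 (SE 0.14, adjusted p = 0.3).

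Smarcc1 (BAF155) and Smarcc2 (BAF170) are alternative scaffold subunits. Smarcc1 had 10.92 and 11.16 in ESCs, 8.65 and 8.64 in MEFs, 9.95 and 9.87 in iPS-cNSCs, 10.34 and 10.37 in iPS-NSCs #1, 9.23 and 9.24 in iPS-NSCs #3, 9.41 and 9.29 in NED-NSCs, and 10.30 and 10.04 in brain-NSCs. Its order was ESCs at the top and MEFs at the bottom, and the NSC arrays were spread between 9.23 and 10.37. Smarcc1 fell by 1.53 (SE 0.10, adjusted p = 1.2e-09) in MEFs and was 2.40 (SE 0.10, adjusted p = 3.8e-12) higher in ESCs than in MEFs. A second, dim Smarcc1 probe was not above background in MEFs and was at least 1.58-fold higher in ESCs (adjusted p = 7.1e-06). Smarcc2 had 7.61 and 8.02 in ESCs, 9.10 and 9.07 in MEFs, 9.89 and 9.72 in iPS-cNSCs, 9.43 and 9.54 in iPS-NSCs #1, 9.10 and 9.19 in iPS-NSCs #3, 9.20 and 9.31 in NED-NSCs, and 9.38 and 9.12 in brain-NSCs. The ESC arrays lay below all others, and 1 of them was below background. Smarcc2 fell by 1.43 (SE 0.12, adjusted p = 4.1e-08) in ESCs, and its change in MEFs was -0.17 (SE 0.12, adjusted p = 0.24).

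Smarcd3 (BAF60c) and Smarcd1 (BAF60a) are alternative accessory subunits. Smarcd3 had 7.70 and 7.69 in ESCs, 8.58 and 8.62 in MEFs, 9.15 and 9.33 in iPS-cNSCs, 8.80 and 9.03 in iPS-NSCs #1, 8.83 and 8.73 in iPS-NSCs #3, 9 and 9.01 in NED-NSCs, and 9.10 and 9.10 in brain-NSCs. Its ESC arrays were at the background level and all other arrays were above it, with a fall of 1.40 (SE 0.09, adjusted p = 1.2e-09) in ESCs. The change in MEFs was -0.50 (SE 0.09, adjusted p = 0.00013). Smarcd1 had no probe that passed the filter. Smarcd1 had 7.77 and 7.81 in ESCs, 7.48 and 7.46 in MEFs, 7.54 and 7.51 in iPS-cNSCs, 7.56 and 7.45 in iPS-NSCs #1, 7.71 and 7.63 in iPS-NSCs #3, 7.89 and 7.63 in NED-NSCs, and 7.60 and 7.67 in brain-NSCs by its brightest probe. These values lay around the background level, on both sides of it.

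Actl6a (BAF53a) belongs to progenitor complexes and Actl6b (BAF53b) to those of neurons. Actl6a had 12.06 and 12.28 in ESCs, 10.87 and 10.78 in MEFs, 11.38 and 11.58 in iPS-cNSCs, 10.97 and 10.68 in iPS-NSCs #1, 10.99 and 10.90 in iPS-NSCs #3, 10.67 and 10.81 in NED-NSCs, and 11.25 and 11.57 in brain-NSCs. Actl6a was 1.34 (SE 0.12, adjusted p = 6.5e-08) higher in ESCs than in MEFs, and its change against brain-NSCs was 0.76 (SE 0.12, adjusted p = 5.4e-05) in ESCs and -0.58 (SE 0.12, adjusted p = 0.00059) in MEFs. With signals scaled to the same median, the change of Actl6a in MEFs was 0.04. Actl6b had 7.99 and 7.93 in ESCs, 7.68 and 7.84 in MEFs, 7.68 and 7.69 in iPS-cNSCs, 7.62 and 7.84 in iPS-NSCs #1, 7.83 and 7.83 in iPS-NSCs #3, 7.96 and 7.84 in NED-NSCs, and 7.85 and 7.92 in brain-NSCs by the kept probe. All were close to background and its other 3 probes were not kept. The core subunit Smarcb1 ranged from 9.81 to 11.07 over the arrays, and Arid1a was not above background on any array, with values from 7.30 to 7.65.

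Among NuRD and CHD genes, 3 of 6 members were over 2-fold higher in ESCs than in MEFs, against 15.3% of all genes. None of the 3, with signals scaled to the same median, passed 2-fold (Chd1 0.64, Mta1 0.75, and Hdac1 0.27). Hdac1 and Hdac2 are the deacetylases of NuRD. Hdac1 had 11.40 and 11.51 in ESCs, 10.38 and 10.42 in MEFs, 10.31 and 10.01 in iPS-cNSCs, 10.59 and 10.48 in iPS-NSCs #1, 10.90 and 11.01 in iPS-NSCs #3, 10.52 and 10.33 in NED-NSCs, and 10.80 and 10.77 in brain-NSCs. It was 1.06 (SE 0.10, adjusted p = 1.3e-07) higher in ESCs than in MEFs. Hdac2 ranged from 12.86 to 13.68, and its changes against brain-NSCs were -0.62 (SE 0.12, adjusted p = 0.00024) in ESCs and -0.70 (SE 0.12, adjusted p = 7e-05) in MEFs. Mta1, a NuRD subunit, had 9.11 and 9.07 in ESCs, 7.94 and 7.87 in MEFs, 7.87 and 7.82 in iPS-cNSCs, 8.14 and 8.25 in iPS-NSCs #1, 8.38 and 8.49 in iPS-NSCs #3, 8.08 and 8.10 in NED-NSCs, and 8.57 and 8.37 in brain-NSCs. Its ESC arrays were highest, and it was 1.18 (SE 0.09, adjusted p = 4.1e-09) higher in ESCs than in MEFs. Chd1, a remodeller known for keeping the chromatin of ESCs open, had 9.51 and 9.59 in ESCs, 8.41 and 8.23 in MEFs, 8.06 and 8.07 in iPS-cNSCs, 8.20 and 8.58 in iPS-NSCs #1, 8.89 and 8.97 in iPS-NSCs #3, 8.59 and 8.61 in NED-NSCs, and 8.75 and 8.86 in brain-NSCs. It was 1.23 (SE 0.11, adjusted p = 3.8e-08) higher in ESCs than in MEFs by the brightest probe and 0.66 (SE 0.12, adjusted p = 8.4e-05) higher by the other. The lowest Chd1 values were those of iPS-cNSCs.

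Mbd3, a scaffold of NuRD, had 10.40 and 10.33 in ESCs, 9.34 and 9.42 in MEFs, 10.83 and 10.09 in iPS-cNSCs, 10.97 and 11.24 in iPS-NSCs #1, 10.45 and 10.32 in iPS-NSCs #3, 10.19 and 10.24 in NED-NSCs, and 10.44 and 10.33 in brain-NSCs. It fell by 1.01 (SE 0.16, adjusted p = 4.4e-05) in MEFs, just past the 2-fold limit. Without the first MEF array the change was -0.96 and without the first brain-NSC array it was -0.95, both short of 2-fold. The ATPase Chd4 ranged from 10.41 to 10.86 by its brightest probe. Its other 2 kept probes ranged from 7.87 to 9.54 and did not follow the first, as described for iPS-NSCs further on.

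Of 7 histone modifiers, 4 fell in MEFs, against 13.6% of all genes. Hat1 kept its call with signals scaled to the same median (-1.64), and Trim28 (-0.48), Setdb1 (-0.61), and Kdm1a (-0.38) did not. Hat1, an acetyltransferase of newly made histone H4, had 14.71 and 14.76 in ESCs, 11.64 and 11.73 in MEFs, 13.53 and 13.58 in iPS-cNSCs, 13.59 and 13.58 in iPS-NSCs #1, 13.94 and 13.86 in iPS-NSCs #3, 13.89 and 13.86 in NED-NSCs, and 14.02 and 13.93 in brain-NSCs. The ESC arrays were highest and the MEF arrays lay well below all others. Hat1 fell by 2.28 (SE 0.08, adjusted p = 4.3e-13) in MEFs, which was 4.87-fold. Trim28 (Kap1), the corepressor that silences endogenous retroviruses, had 14.62 and 14.53 in ESCs, 12.31 and 12.30 in MEFs, 13.09 and 12.77 in iPS-cNSCs, 13.32 and 13.51 in iPS-NSCs #1, 13.55 and 13.55 in iPS-NSCs #3, 13.36 and 13.12 in NED-NSCs, and 13.36 and 13.43 in brain-NSCs. It rose by 1.18 (SE 0.11, adjusted p = 1.2e-07) in ESCs and fell by 1.09 (SE 0.11, adjusted p = 2.5e-07) in MEFs. Setdb1, the histone H3 lysine 9 methyltransferase that Trim28 recruits, had 10.30 and 10.50 in ESCs, 8.93 and 8.95 in MEFs, 9.87 and 9.77 in iPS-cNSCs, 9.70 and 9.76 in iPS-NSCs #1, 9.91 and 9.93 in iPS-NSCs #3, 9.94 and 9.73 in NED-NSCs, and 10.02 and 10.05 in brain-NSCs. Setdb1 fell by 1.09 (SE 0.09, adjusted p = 2.6e-08) in MEFs, and its change in ESCs was 0.37 (SE 0.09, adjusted p = 0.0023).

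Kdm1a (Lsd1), a demethylase of histone H3 lysine 4, had 13.21 and 13.17 in ESCs, 11.75 and 11.80 in MEFs, 12.57 and 12.62 in iPS-cNSCs, 12.61 and 12.61 in iPS-NSCs #1, 12.43 and 12.45 in iPS-NSCs #3, 13 and 12.95 in NED-NSCs, and 12.80 and 12.81 in brain-NSCs. It fell by 1.03 (SE 0.08, adjusted p = 4.1e-09) in MEFs, and the MEF arrays lay below all others. Kdm6b (Jmjd3) removes methyl groups from histone H3 lysine 27 and so opposes PRC2. It had 8.73 and 8.61 in ESCs, 9.80 and 9.78 in MEFs, 9.06 and 9.30 in iPS-cNSCs, 8.82 and 8.81 in iPS-NSCs #1, 9.05 and 8.77 in iPS-NSCs #3, 8.78 and 8.97 in NED-NSCs, and 8.91 and 8.87 in brain-NSCs. Kdm6b was the 1 tested member whose highest values were those of MEFs. Its change was 0.90 (SE 0.11, adjusted p = 1.6e-06) in MEFs against brain-NSCs, short of 2-fold, and 1.21 with neqc, 1.5 with signals scaled to the same median, and 1.07 with signals scaled over kept probes. It was lower in ESCs than in MEFs by 1.12 (SE 0.11, adjusted p = 9.4e-08). Hdac5, a deacetylase that moves between nucleus and cytoplasm, had 10.04 and 9.96 in ESCs, 10.51 and 10.38 in MEFs, 10.98 and 10.93 in iPS-cNSCs, 11.80 and 11.82 in iPS-NSCs #1, 10.98 and 11.09 in iPS-NSCs #3, 11.73 and 11.81 in NED-NSCs, and 11.28 and 11.21 in brain-NSCs. Hdac5 fell by 1.24 (SE 0.08, adjusted p = 2.1e-09) in ESCs and its change in MEFs was -0.80 (SE 0.08, adjusted p = 3.6e-07). A second kept Hdac5 probe also fell in ESCs, by 1.01 (SE 0.10, adjusted p = 1.8e-07), and the third and dimmest, which was not above background in ESCs, had a change of -0.49 (SE 0.09, adjusted p = 0.00019). Ehmt2 (G9a) ranged from 10.77 to 11.24 by its brightest probe.

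Scaling affected some of these directions. The median change of all kept probes in MEFs was -0.14 with the deposited values and 0.23 with signals scaled to the same median. Among members that had passed the adjusted p in MEFs, the changes of Ring1, Actl6a, Hdac1, and Ehmt2 were positive under that scaling. Those of Rnf2, Smarcc2, Smarcb1, and Chd4, which had not passed, were positive as well. No member that rose or fell in ESCs or MEFs changed direction under any alternative.

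With the deposited values, fewer members passed 2-fold between NSC groups than between NSCs and the other cells, and so did fewer of all genes. With signals scaled to the same median, more members passed it in iPS-cNSCs against NED-NSCs than in MEFs against brain-NSCs. The questions were whether NSCs made from iPSCs in the dish (iPS-NSCs) or in a chimeric brain (iPS-cNSCs) had the same levels as brain-NSCs, and how host-derived NED-NSCs compared. Against brain-NSCs, 0 members passed 2-fold in iPS-NSCs, the mean of lines #1 and #3, against 2.6% of all genes higher and 2.25% lower. In NED-NSCs the count was also 0, against 2.51% higher and 1.67% lower. Source mice and chimeric origin cannot be told apart in that comparison. In iPS-cNSCs 0 members rose, against 3.69% of all genes, and 1 fell (Dnmt3b), against 2.51%. The local-pooled-error test on the deposited values gave the same counts.

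Without the 2-fold limit, at the adjusted p alone, 3 members were higher in iPS-NSCs (9.09%, against 22.6% of all genes) and 14 were lower (42.4%, against 24.1%). In iPS-cNSCs 6 were higher (18.2%, against 25.2%) and 14 were lower (42.4%, against 31.9%), but 10 of these 14 had a change above 0 with signals scaled to the same median. That scaling moved the median change of all kept probes in iPS-cNSCs to 0.54, against -0.04 with the deposited values. In NED-NSCs 3 were higher (9.09%, against 19.8%) and 11 were lower (33.3%, against 18.6%). These 3 comparisons share the brain-NSC arrays. The median change of members was -0.15 in iPS-NSCs (-0.01 over all genes), -0.21 in iPS-cNSCs (-0.05), and -0.16 in NED-NSCs (-0.01).

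**Figure D4:**
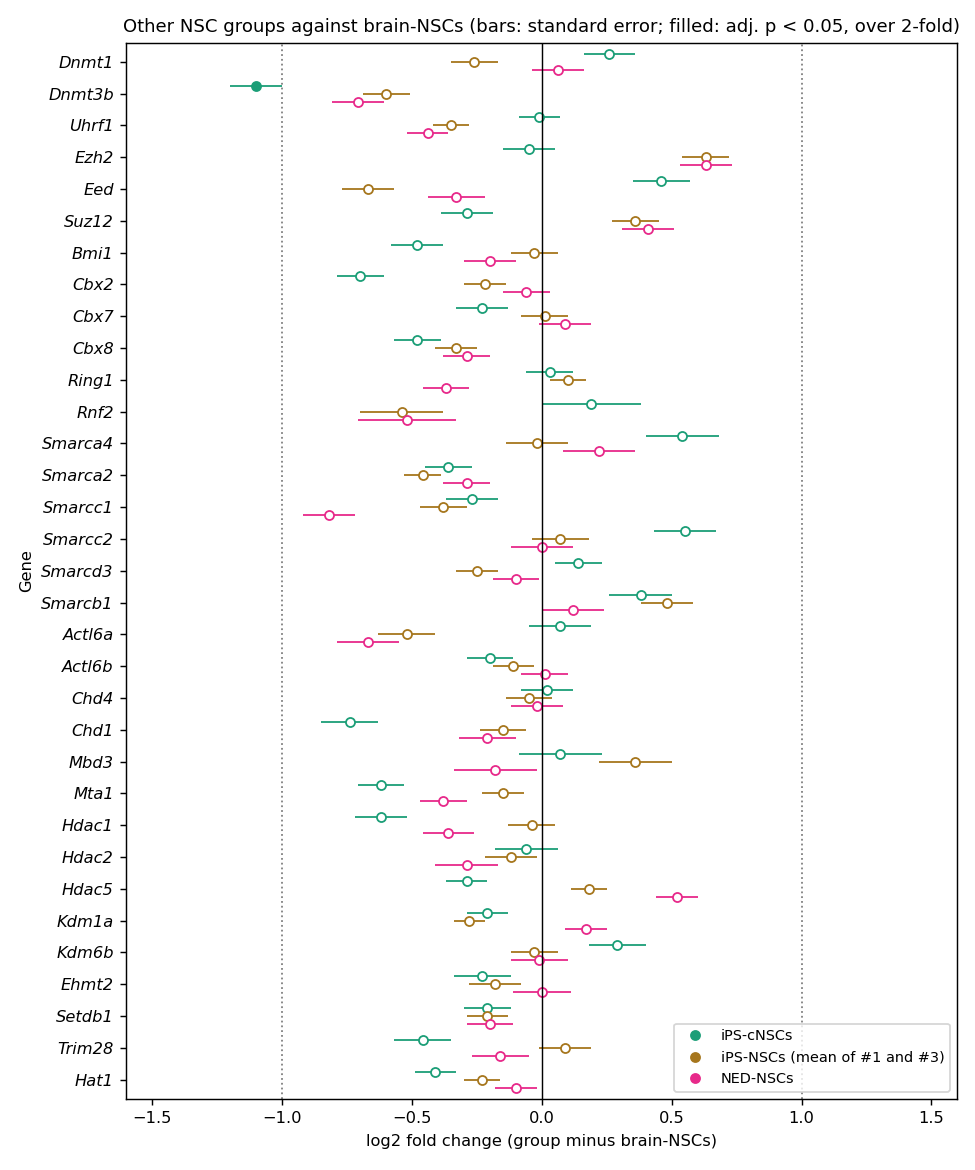
log2 fold changes of the 33 tested members in iPS-cNSCs (green), iPS-NSCs (brown), and NED-NSCs (pink) against brain-NSCs. Bars are standard errors, dotted lines mark 2-fold, and filled points passed the adjusted p and the 2-fold limit. Dnmt3b in iPS-cNSCs is the 1 filled point. With signals scaled to the same median it moves to -0.45, and 10 members that were lower in iPS-cNSCs at the adjusted p have a change above 0.

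Dnmt3b was lower than in brain-NSCs in each of the other NSC groups. The change was -1.10 (SE 0.10, adjusted p = 2.7e-07) in iPS-cNSCs, -0.60 (SE 0.09, adjusted p = 3.3e-05) in iPS-NSCs, and -0.71 (SE 0.10, adjusted p = 3.8e-05) in NED-NSCs. No array of these groups reached the brain-NSC arrays, and the iPS-cNSC arrays overlapped those of iPS-NSCs #1. Dnmt3b was also lower in line #1 than in line #3 with a log2 change of -0.57 (SE 0.10, adjusted p = 0.00039). Dnmt1 had a change of -0.26 (SE 0.09, adjusted p = 0.021) in iPS-NSCs, 0.26 (SE 0.10, adjusted p = 0.036) in iPS-cNSCs, and 0.06 (SE 0.10, adjusted p = 0.69) in NED-NSCs. The Dnmt1 change in iPS-NSCs was -0.13 (adjusted p = 0.34) without the second brain-NSC array, and that in iPS-cNSCs was 0.13 (adjusted p = 0.35) without the first. Uhrf1 had -0.35 (SE 0.07, adjusted p = 0.00096) in iPS-NSCs, -0.01 (SE 0.08, adjusted p = 0.92) in iPS-cNSCs, and -0.44 (SE 0.08, adjusted p = 0.00076) in NED-NSCs.

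PRC2 subunits were not shifted together in the NSC groups. Ezh2 was higher than in brain-NSCs in iPS-NSCs by 0.63 (SE 0.09, adjusted p = 2.7e-05) and in NED-NSCs by 0.63 (SE 0.10, adjusted p = 0.00016), and its change in iPS-cNSCs was -0.05 (SE 0.10, adjusted p = 0.7). A dimmer Ezh2 probe did not follow, with -0.09 (SE 0.10, adjusted p = 0.48) and -0.28 (SE 0.11, adjusted p = 0.062) in iPS-NSCs and NED-NSCs. Suz12 was higher in iPS-NSCs by 0.36 (SE 0.09, adjusted p = 0.0035) and in NED-NSCs by 0.41 (SE 0.10, adjusted p = 0.0049). Eed went the other way in these 2 groups, with -0.67 (SE 0.10, adjusted p = 4.4e-05) in iPS-NSCs and -0.33 (SE 0.11, adjusted p = 0.033) in NED-NSCs, and was higher in iPS-cNSCs by 0.46 (SE 0.11, adjusted p = 0.0028). Without the first NED-NSC array the change of Eed in NED-NSCs was -0.21 (adjusted p = 0.27). Suz12 lies on chromosome 11, where the median change over 720 genes in NED-NSCs against brain-NSCs was 0.14. The part of that shift in the change of Suz12 was not tested.

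Smarcc1 was lower than in brain-NSCs in NED-NSCs by 0.82 (SE 0.10, adjusted p = 1.1e-05). In iPS-NSCs its change was -0.38 (SE 0.09, adjusted p = 0.0022) over lines that lay on both sides, with means of 10.35 in line #1, 9.24 in line #3, and 10.17 in brain-NSCs. In iPS-cNSCs the change was -0.27 (SE 0.10, adjusted p = 0.034), and 0.56 with signals scaled to the same median. Without the first brain-NSC array the changes were -0.25 in iPS-NSCs (adjusted p = 0.077) and -0.14 in iPS-cNSCs (adjusted p = 0.34). Smarca2 was lower in all 3 groups, by 0.46 (SE 0.07, adjusted p = 0.00012) in iPS-NSCs, 0.36 (SE 0.09, adjusted p = 0.0026) in iPS-cNSCs, and 0.29 (SE 0.09, adjusted p = 0.016) in NED-NSCs, although it was the reverse in iPS-cNSCs with signals scaled to the same median (0.37). Without the second NED-NSC array the change in NED-NSCs was -0.24 (adjusted p = 0.11). The dim Smarca2 probe did not follow, with changes of 0.11 to 0.16 in the 3 groups. The median change over 301 genes of chromosome 19, which holds Smarca2, was -0.36 for iPS-cNSCs, -0.32 for iPS-NSCs, and -0.31 for NED-NSCs, and its part in the Smarca2 changes was not tested.

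Smarcc2 and Smarca4 were higher in iPS-cNSCs, by 0.55 (SE 0.12, adjusted p = 0.0014) and 0.54 (SE 0.14, adjusted p = 0.0045). Without the first iPS-cNSC array the Smarca4 change was 0.22 (adjusted p = 0.069). Actl6a was lower in iPS-NSCs by 0.52 (SE 0.11, adjusted p = 0.00097) and in NED-NSCs by 0.67 (SE 0.12, adjusted p = 0.00059). Cbx8 was lower in all 3 groups, by 0.33 (SE 0.08, adjusted p = 0.0021) in iPS-NSCs, 0.48 (SE 0.09, adjusted p = 0.00028) in iPS-cNSCs, and 0.29 (SE 0.09, adjusted p = 0.015) in NED-NSCs, but its change in iPS-cNSCs was 0.16 with signals scaled to the same median. Without the second brain-NSC array the Cbx8 change was -0.24 in iPS-NSCs (adjusted p = 0.064) and -0.20 in NED-NSCs (adjusted p = 0.16). Bmi1 had -0.03 (SE 0.09, adjusted p = 0.79) in iPS-NSCs and -0.20 (SE 0.10, adjusted p = 0.15) in NED-NSCs. Its change in iPS-cNSCs was -0.48 (SE 0.10, adjusted p = 0.0012), or 0.35 with signals scaled to the same median.

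The 3 kept probes of Chd4 disagreed in iPS-NSCs. The brightest had a change of -0.05 (SE 0.09, adjusted p = 0.7). The other 2 were higher by 0.88 (SE 0.08, adjusted p = 4.3e-07) and 1.26 (SE 0.12, adjusted p = 6.3e-07), and the last of these passed 2-fold. By that probe Chd4 had 8.97 and 9.35 in iPS-NSCs #1, 9.54 and 9.41 in iPS-NSCs #3, and 8.14 and 7.98 in brain-NSCs, with no overlap. It also had 8.92 and 8.50 in iPS-cNSCs and 8.91 and 8.75 in NED-NSCs, all above the brain-NSC arrays.

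Groups of NSCs differentiated from iPSCs in vivo and in vitro were compared directly, where route and line cannot be told apart. In iPS-cNSCs against iPS-NSCs, 1 member rose (Eed), against 4.86% of all genes, and 0 fell, against 3.11%. At the adjusted p alone 9 were higher (27.3%, against 27.7% of all genes) and 12 were lower (36.4%, against 36.4%). Eed was 1.13 (SE 0.10, adjusted p = 1e-07) higher in iPS-cNSCs, or 2.20-fold. The signals of the iPS-NSC arrays were not matched by name, so no other scaling was run for this comparison. Its 2 iPS-cNSC arrays (10.80 and 10.59) lay above the 4 iPS-NSC arrays, which ranged from 9.41 to 9.76. Ezh2 and Suz12 were lower in iPS-cNSCs, by 0.68 (SE 0.09, adjusted p = 8.1e-06) and 0.64 (SE 0.09, adjusted p = 1.3e-05). The probes of Ezh2 disagree, since its dimmer kept probe had a change of -0.06 (SE 0.10, adjusted p = 0.6). Rnf2 was higher by 0.74 (SE 0.16, adjusted p = 0.001), by 1.09 without the second iPS-cNSC array, and by 0.39 without the first.

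Both NSC groups of the chimeric brain were also compared, where iPSC origin, source mice, transgenes, and neomycin selection cannot be told apart. In iPS-cNSCs against NED-NSCs, 0 members rose and 0 fell, against 3.09% and 2.28% of all genes. At the adjusted p alone 9 were higher (27.3%, against 22.8% of all genes) and 13 were lower (39.4%, against 30.9%). Eed was higher by 0.79 (SE 0.11, adjusted p = 3.7e-05) and Actl6a by 0.74 (SE 0.12, adjusted p = 0.00017). Hdac5 was lower by 0.81 (SE 0.08, adjusted p = 1.5e-06), Suz12 by 0.70 (SE 0.10, adjusted p = 4.2e-05), and Ezh2 by 0.68 (SE 0.10, adjusted p = 5.6e-05), but with signals scaled to the same median their changes were 0.24, 0.30, and 0.36. The dimmer kept Ezh2 probe had a change of 0.13 (SE 0.11, adjusted p = 0.35). Hdac5 and Suz12 lie on chromosome 11, where the median change in this comparison was -0.23. The part of that shift in their changes was not tested. The scaling to the same median moved the median change of all kept probes to 0.68, against -0.05 with the deposited values. With it 15 members rose, and the share of all genes was not counted under that scaling. The lowest signal on an array was 83.7 to 84.4 in iPS-cNSCs and 79.8 to 96.2 in MEFs, against 119 to 132 on the other arrays matched by name. Which scaling is closer to the true levels was not tested.

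Between the iPS-NSC lines, 1 member passed 2-fold by its brightest probe. In line #1 against line #3, 1 member rose (Smarcc1), against 1.9% of all genes, and 0 fell, against 1.13%. At the adjusted p alone 7 were higher (21.2%, against 14.6% of all genes) and 7 were lower (21.2%, against 15.3%). Smarcc1 was 1.12 (SE 0.10, adjusted p = 4.6e-07) higher in line #1, with 10.34 and 10.37 in line #1 and 9.23 and 9.24 in line #3. The second Smarcc1 probe had a change of -0.07 (SE 0.11, adjusted p = 0.69), and the mean of both probes changed by 0.52. Hdac5, Smarcb1, and Mbd3 were also higher in line #1, by 0.78 (SE 0.08, adjusted p = 3.7e-06), 0.75 (SE 0.12, adjusted p = 0.00012), and 0.72 (SE 0.16, adjusted p = 0.0035). Without the second array of line #1 the Mbd3 change was 0.59 (adjusted p = 0.053). Of the 7 members higher in line #1, 4 (Hdac2, Mbd3, Smarcb1, and Smarcc2) lie on chromosome 10, where the median change over 416 genes was 0.31, against -0.11 to -0.02 on each other chromosome. Of markers of other cells, Thy1 (1 of 2 tested fibroblast markers) and Esrrb (1 of 3 tested pluripotency markers) passed 2-fold between the lines. The other tested markers of these lists did not pass the adjusted p. The array mean of the 6 fibroblast markers was 8.35 to 8.37 in line #1 and 7.48 to 7.58 in line #3, with Thy1 higher in line #1 by 4.55 and Col1a1, Col3a1, Pdgfrb, and Postn not above background in either line. The array mean of the 7 pluripotency markers was 7.97 on both arrays of line #1 and 7.64 to 7.76 in line #3, with Esrrb higher in line #1 by 1.82 and Nanog, Zfp42, Utf1, and Tdgf1 not above background in either line. Their part in the member changes was not tested.

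Further chromatin genes were counted from lists of related genes that are no members. The lists were chosen with earlier results of these data known. Of all genes tested, 8.51% rose and 12.5% fell in ESCs, and 11.1% rose and 13.6% fell in MEFs. Of 14 tested further Polycomb genes, 4 rose and 3 fell in ESCs against brain-NSCs, with Mtf2, a PRC2 accessory protein, at 2.49 and the PRC1 subunits Phc2 and Phc1 at -2.40 and 2.04. In MEFs 0 rose and 3 fell, with the PRC1 subunit Pcgf5 at -2.43. Of 43 further histone modifiers, 7 rose and 1 fell in ESCs, led by the deacetylase Sirt1 (2.04), and 1 rose and 5 fell in MEFs, led by the demethylase Kdm6a (-1.47). Of 13 histone chaperones and assembly factors, 1 rose and 0 fell in ESCs, and 0 rose and 6 fell in MEFs. The genes that fell were led by the histone H3 and H4 chaperone Nasp (-2.63) and by the replication-coupled assembly factor Chaf1b (-1.89).

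Of 12 further NuRD, CHD, and ISWI genes, 2 rose in ESCs, Mta3 by 2.55 and the ISWI ATPase Smarca1 by 2.0, and 0 passed 2-fold in MEFs, where 2 were higher and 4 lower at the adjusted p alone. Of 10 further SWI/SNF genes, 1 rose in ESCs (Smarcd2, 1.39). In MEFs 2 rose (Bcl11b, 2.40, and Smarcd2, 2.07) and 1 fell (Bcl7a, -1.35). Smarcd2 is the third alternative of the Smarcd subunits. Of 7 further DNA methylation genes, 1 rose and 2 fell in ESCs, and 2 rose and 1 fell in MEFs, where the glycosylase Tdg, which acts in active demethylation, fell by 2.14. Gadd45a, a stress-response gene, rose in ESCs (2.18), MEFs (2.41), iPS-NSCs (2.81), and NED-NSCs (1.99) against brain-NSCs, and fell by 2.37 in line #1 against line #3. In the NSC groups few of these genes passed 2-fold. Pcgf5 fell by 1.80 in iPS-NSCs against brain-NSCs, and the deacetylase Hdac7 rose by 1.20. Pcgf5 also fell in iPS-cNSCs, both against brain-NSCs and against NED-NSCs.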

How the data were processed

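Values of 14 arrays (2 for each of 7 groups, grouped by the sample titles) were used. The log2 values deposited by the authors had been quantile normalized over the arrays, and GenomeStudio 2011.1 is named in the submitters' processing notes. The authors also deposited non-normalized signal intensities with a detection p-value for each probe. Of these, 4 intensity columns and 4 detection p-value columns could not be matched to a sample by name and were not used. The deposited log2 values served for the main results, and the intensities were used only for other scalings. The authors filtered on detection, and here a log2 value of at least 7.7 stood in for it, since on the arrays matched by name it gave the same answer as a detection p-value of 0.05 for 98.2% to 99.8% of probes. Of 25697 probes, 12195 reached 7.7 on at least 7 of 14 arrays and were kept.

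A mean for each group was fitted to all 14 arrays with limma 3.58.1 in R 4.3.3 (7 residual degrees of freedom, with p-values of 2 arrays a group resting on the pooled spread), and p-values were adjusted by Benjamini-Hochberg over all kept probes. A gene was represented by its kept probe with the highest mean. Groups not above background gave a bound on the fold. The local-pooled-error test of the study's methods was coded anew. Further alternatives were no filter, a second quantile normalization, neqc and median scaling of the intensities, array weights, other fold limits, the mean of probes, a replicate block, and leaving out each array. The number of arrays limits the precision.

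Members called in any comparison, and all alternative subunits, are given on every array, and up to 3 further genes a list are named by size of change. Members and lists were chosen with earlier results of these data known. Symbols are those of the platform annotation, updated through Entrez numbers in RefSeq, where 23962 of 25697 probes matched and no symbol changed. Start regions came from RefSeq (GRCm38.p6). The fits were tested on simulated data.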

Additional observations from a re-analysis of the deposited data

Results flagged for a closer look

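A pair of results was flagged because a member passed 2-fold between groups of NSCs made from iPSCs. Each was 1 of 33 tested members (3.03%), against 4.86% of all genes higher in the first comparison and 1.9% in the second. In the first comparison, route and line cannot be told apart. Eed differed between iPS-cNSCs and iPS-NSCs by 1.13 on the log2 scale (adjusted p = 1e-07, limma), with both iPS-cNSC arrays above all 4 iPS-NSC arrays. Smarcc1 differed between iPS-NSC lines #1 and #3 by 1.12 (adjusted p = 4.6e-07), with no overlap between the arrays of the lines. A second Smarcc1 probe showed a change of -0.07 between the lines.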

How the results depend on the processing

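Over 45 calls of single members, 551 of 581 values under an alternative kept the call, 30 lost it, and 0 changed direction. The count of members past the threshold was 10 in ESCs, 13 in MEFs, 0 in iPS-NSCs and 0 in NED-NSCs, and 1 in iPS-cNSCs, each against brain-NSCs, then 1 in iPS-cNSCs against iPS-NSCs, 0 in iPS-cNSCs against NED-NSCs, 1 in line #1 against line #3, and 19 in ESCs against MEFs. In the same order, without the fold limit the first 8 counts were 24, 26, 17, 14, 20, 21, 22, and 14. With a limit of 1.5-fold they were 18 in ESCs, 3 in iPS-NSCs, 4 in NED-NSCs, 5 in iPS-cNSCs, 6 in iPS-cNSCs against iPS-NSCs, 7 in iPS-cNSCs against NED-NSCs, and 4 in line #1 against line #3. With neqc the count was 4 in iPS-cNSCs (0 higher and 4 lower), 1 in NED-NSCs (Smarcc1), and 4 in iPS-cNSCs against NED-NSCs (1 higher and 3 lower). With median scaling it was 7 in MEFs (1 higher and 6 lower), 6 in iPS-cNSCs (6 higher and 0 lower), 15 in iPS-cNSCs against NED-NSCs (15 higher and 0 lower), and 15 in ESCs against MEFs (8 higher and 7 lower). With median scaling over kept probes, chosen after seeing the data, it was 5 in iPS-cNSCs (0 higher and 5 lower) and 3 in iPS-cNSCs against NED-NSCs. With the mean of probes it was 0 in line #1 against line #3. Shares of all genes were not counted with neqc or the median scalings. The cause of these shifts was not tested. Scalings of the intensities could not be run for iPS-NSCs.

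Leaving out 1 array at a time gave 10 to 10 members in ESCs, 13 to 13 in MEFs, 0 to 0 in iPS-NSCs and in NED-NSCs, 1 to 1 in iPS-cNSCs, 1 to 2 in iPS-cNSCs against iPS-NSCs, 0 to 1 in iPS-cNSCs against NED-NSCs, 1 to 1 in line #1 against line #3, and 19 to 20 in ESCs against MEFs. The lone array of a group was then assumed to vary like the other groups. An equal count need not mean the same members. In MEFs, the Mbd3 change was -0.95 without the first brain-NSC array, and the Cbx2 change was -1.01 without the first MEF array. The added call in both iPS-cNSC comparisons was Rnf2, without the second iPS-cNSC array.

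With the replicate number as a block the counts of members were 10, 13, 0, 0, 1, 1, 0, 1, and 19, which changed none. Each group has an array of each number, so the block alters the spread and not the fold changes. Over 21 pairs of groups, the deviations of same-numbered arrays had correlations of -0.24 to 0.12, with 3 pairs over 0.1. These values do not settle whether the numbers pair the arrays.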
